A study of Mus musculus with 4 samples.

Results

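Intermediate progenitor cells are the daughters of radial glia that leave the ventricular surface, divide in the subventricular zone and give rise to most of the excitatory neurons of the cerebral cortex. They are marked by Eomes, the gene of the T-box transcription factor TBR2, which stands between the radial glial factor PAX6 and the neuronal factor TBR1 in the sequence of cortical neuron formation. Proneural factors such as NEUROG2 start this step in radial glia and switch on genes that slow the cell cycle and prepare the cell for migration. The 6 genes described here were Eomes and Insm1, which encode transcription factors, Btg2 and Gadd45g, which encode antiproliferative and growth-arrest proteins, Rnd2, a small GTPase of migrating neurons, and Sstr2, a somatostatin receptor. They were taken by symbol from a list of known intermediate progenitor genes, not by their measured values, with earlier results of these data known. All 6 were found among the 27293 genes of the count table. All 6 passed the filter on low counts, which left 16145 genes.

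RNA was extracted from telencephalic tissue of C57BL/6 mouse embryos at embryonic day 13 (E13) and sequenced in 4 libraries. The 2 libraries of the first group were labelled WT, and the 2 of the second were labelled STINGf/f;Nestin-Cre and are called cKO. In cKO embryos, both STING alleles are floxed and Cre recombinase is driven by the Nestin promoter, which acts in neural progenitors and is passed to their progeny, while cells of other origin in the same tissue keep the gene. The genotype label of WT 2 is WT, but its title carries the letters nes where that of WT 1 carries wt, and whether it holds the Cre transgene is not given in the sources used here. The study names the tissue cerebral cortex and stained TBR2 in brain sections of a later stage, and the counts address whether the transcripts of this cell type already differed between the genotypes at E13. The labels do not say whether a library came from 1 embryo or from a pool, so the spread between libraries may be partly technical.

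The counts on genes summed to between 17209654 and 18533391 per library, so that 3 counts, the limit that a count of 0 allows, equalled 0.162 to 0.174 CPM (counts per 1000000 reads on genes). The STING gene, listed as Tmem173, was scarce, at 20 (WT 1), 19 (WT 2), 18 (cKO 1) and 22 counts (cKO 2), with a log2 fold change of 0.02 and a standard error of 0.45. A lower level in cKO was therefore not seen, and these few counts, taken over the whole gene, cannot check the genotype, so WT and cKO below mean the libraries labelled so. The libraries of 1 group also differed from each other. The meninges and mesenchyme list summed to 291 CPM in WT 1 and to between 39.5 and 76.2 CPM in the other libraries, and the choroid plexus list to 52.4 CPM against 6.80 to 9.44 CPM. The ventral telencephalon list summed to 727 CPM in cKO 1 and to between 1070 and 1148 CPM in the others. The Y-linked genes (Ddx3y, Eif2s3y, Kdm5d, Uty) summed to 0 counts in WT 2 and to between 1848 and 3002 elsewhere. The telencephalic genes Emx1, Emx2 and Lhx2 each had between 1054 and 9584 counts in every library.

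The promoters of 4 of the 6 genes, from 250 bases before to 50 bases after the transcription start, are shown because they hold what these genes share and do not share in sequence. They are the RefSeq sequences of GRCm38.p6, read 5′ to 3′ on the strand of the gene. Capitals mark the CCAAT box (CCAAT or ATTGG), the cyclic AMP response element (TGACGTCA), the E-boxes CAGCTG and CACGTG and the TATA box (TATAAA or TTTATA), searched on both strands. The Eomes promoter lies at chr9:118477939-118478238 on the plus strand, that of Gadd45g at chr13:51846425-51846724 on the plus strand, that of Btg2 at chr1:134079106-134079405 on the minus strand and that of Sstr2 at chr11:113619077-113619376 on the plus strand.
Eomes: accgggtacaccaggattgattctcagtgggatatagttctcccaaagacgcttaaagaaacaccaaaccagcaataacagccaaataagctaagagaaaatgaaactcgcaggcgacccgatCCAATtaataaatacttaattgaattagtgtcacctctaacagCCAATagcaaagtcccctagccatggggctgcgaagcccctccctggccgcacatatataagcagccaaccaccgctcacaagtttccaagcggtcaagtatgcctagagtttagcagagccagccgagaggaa
Gadd45g: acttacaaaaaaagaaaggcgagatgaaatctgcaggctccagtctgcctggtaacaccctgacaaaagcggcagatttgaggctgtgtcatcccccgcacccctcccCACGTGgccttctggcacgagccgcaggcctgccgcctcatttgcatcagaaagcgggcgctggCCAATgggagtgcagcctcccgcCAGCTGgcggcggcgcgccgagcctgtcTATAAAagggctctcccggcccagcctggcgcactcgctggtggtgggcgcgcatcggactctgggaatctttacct
Btg2: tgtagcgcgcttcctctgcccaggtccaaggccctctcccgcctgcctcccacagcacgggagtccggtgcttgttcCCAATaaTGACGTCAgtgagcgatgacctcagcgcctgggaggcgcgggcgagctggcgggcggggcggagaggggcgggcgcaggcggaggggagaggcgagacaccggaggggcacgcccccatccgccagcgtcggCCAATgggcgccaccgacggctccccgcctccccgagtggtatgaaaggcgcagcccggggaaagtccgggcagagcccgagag
Sstr2: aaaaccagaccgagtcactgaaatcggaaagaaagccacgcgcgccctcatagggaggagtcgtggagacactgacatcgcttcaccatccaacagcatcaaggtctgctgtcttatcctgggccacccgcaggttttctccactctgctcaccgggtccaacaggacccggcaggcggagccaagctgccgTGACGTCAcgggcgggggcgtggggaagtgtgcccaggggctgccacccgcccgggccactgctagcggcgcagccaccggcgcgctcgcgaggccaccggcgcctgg

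The CCAAT box was found in 3 of these 4 promoters (Eomes, Btg2 and Gadd45g) and in 37.4% of all 32851 promoters. The cyclic AMP response element, the site bound by CREB-type factors, was found in Btg2 and Sstr2 and in 1.79% of all promoters. Both E-boxes were found in Gadd45g alone, CAGCTG 55 bases and CACGTG 142 bases before the start, against 16.3% and 7.15% of all promoters. Gadd45g also held the TATA box in the letters searched, TATAAA or TTTATA, which were found in 13.6% of all promoters. Other spellings of this box, such as the tatataag in the Eomes promoter, were not searched. The GC box, searched as GGGCGG and CCGCCC and not in capitals here, was found in Btg2 and Sstr2 and in 35.7% of all promoters. The proneural E-box CAGATG, which reads CATCTG on the opposite strand, was in none of the 4 and in 17.2% of all promoters. The T-box core AGGTGTGA, which on the opposite strand reads TCACACCT, was in none of the 4 and in 1.28% of all promoters. The NF-κB consensus was in none of the 4 and in 5.80% of all promoters. The 4 promoters differed in base composition, with a GC content of 47.3% in Eomes, 62.3% in Gadd45g, 66.3% in Sstr2 and 72.0% in Btg2, around a median of 52.7% for all promoters. A match is a description of these letters in this window and not a site of binding. Insm1 and Rnd2 were not in the promoter table.

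None of the 6 genes passed the thresholds of the study between cKO and WT, a fold change of at least 2 with an unadjusted p of at most 0.05, where 0.811% of all 16145 genes tested did. The fold changes, cKO over WT, lay between 0.991 for Insm1 and 1.15 for Rnd2 and Eomes. Of the 6, 5 were above 1, as were 47.9% of all genes tested. The 95% intervals of the 6 fold changes together reached from 0.759 to 1.5, so neither a doubling nor a halving lay within the interval of any of them. The median log2 fold change of the 6 was 0.13, beside -0.01 for all genes tested, whose quartiles were -0.17 and 0.10. In bulk tissue, a difference in the number of intermediate progenitors and a difference in RNA per cell cannot be told apart.

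**Figure D1:**
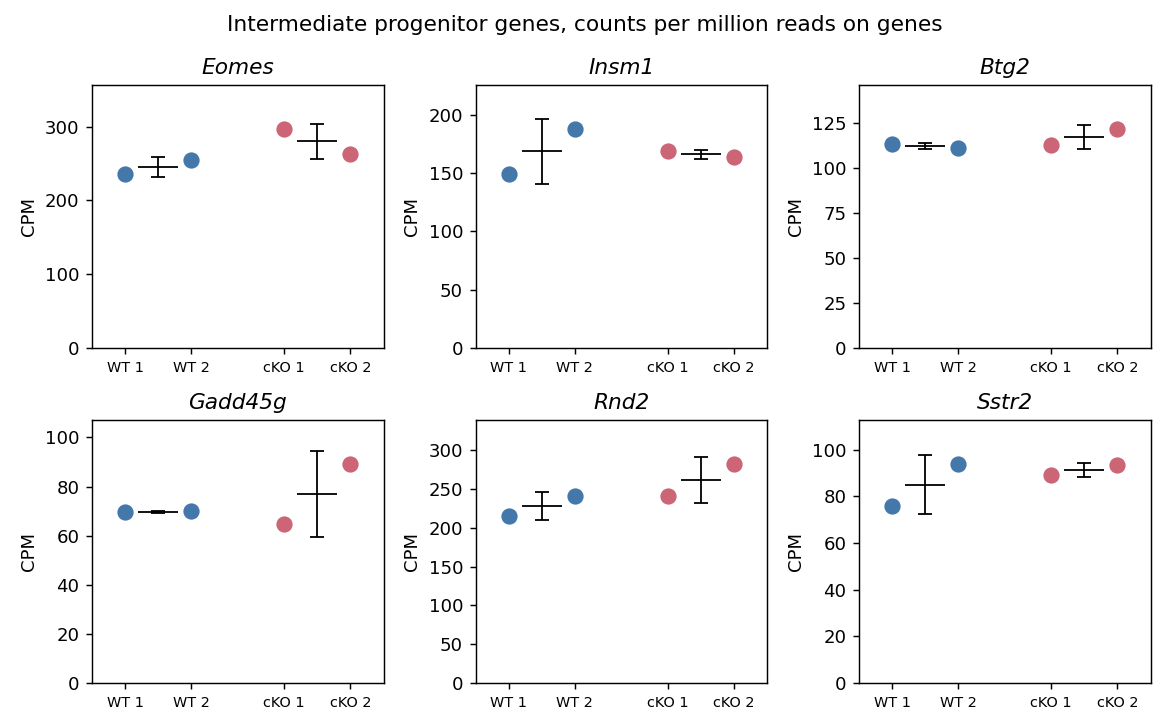
Each panel gives 1 gene, with its level in CPM (axis from 0) in the 2 WT (blue) and the 2 cKO (red) libraries, and a black bar for the mean with the SD of the 2 libraries. Eomes is the only gene whose cKO libraries both lie above both WT libraries, and WT 1 is the lowest library for Eomes, Insm1, Rnd2 and Sstr2.

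Eomes (ENSMUSG00000032446, plus strand of chromosome 9 from 118478212 to 118486132 in GRCm38) was among the more abundant transcripts of the tissue, above 95.8% of the genes tested. It was counted 4058 (WT 1) and 4721 times (WT 2), against 5418 (cKO 1) and 4766 times (cKO 2). In CPM these were 236 and 255 in WT and 297 and 263 in cKO, so both cKO libraries lay above both WT libraries, by a narrow margin between WT 2 and cKO 2. The mean was 245 ± 13.4 CPM in WT and 280 ± 23.8 CPM in cKO (SD, n = 2 each). The log2 fold change was 0.20 (standard error 0.15), with a Benjamini-Hochberg adjusted p = 0.9999 in edgeR's fit, the same value as for the other 5 genes. Of all genes tested, 10.4% had both cKO libraries above both WT libraries in CPM, so the lack of overlap in Eomes is not a result about this gene. Its 3′ end shares 118 exonic bases with the antisense gene Gm33460, which had 35 to 55 counts.

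Insm1 encodes a zinc-finger repressor that is expressed for a short time in progenitors that are about to leave the ventricular surface. It is a gene of 1 exon on the plus strand of chromosome 2 (146221921 to 146225020). It stood at 149 CPM (WT 1) and 188 CPM (WT 2), against 169 CPM (cKO 1) and 163 CPM (cKO 2). Both cKO libraries lay between the 2 WT libraries, and WT 2 was 1.26 times as high as WT 1. The log2 fold change was -0.01 (standard error 0.17, edgeR's unadjusted p of 0.936).

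Btg2 encodes an antiproliferative protein that marks progenitors on the way to a neurogenic division and is also a target of p53. It lies on the minus strand of chromosome 1 (134075170 to 134079120) in 2 exons. The 4 libraries gave nearly the same level, 114 (WT 1), 111 (WT 2), 113 (cKO 1) and 122 CPM (cKO 2), and the highest was 1.10 times the lowest. The log2 fold change was 0.07 (standard error 0.14, unadjusted p of 0.626 in edgeR's fit). After TMM normalization both cKO libraries of Btg2 lay above both WT libraries, at 112.5 and 123.5 against 112.4 and 112.0 CPM. On that scale 11.0% of all genes tested did so.

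Gadd45g, a stress-responsive growth-arrest gene that proneural factors switch on in newly committed cells, lies on the plus strand of chromosome 13 (51846678 to 51848468). It stood at 69.5 CPM (WT 1) and 70.0 CPM (WT 2), against 64.7 CPM (cKO 1) and 89.4 CPM (cKO 2). The WT libraries were close to each other, and the cKO libraries fell on both sides of them, with cKO 2 at 1.38 times cKO 1. This was the widest gap between libraries of the same label among the 6 genes. The log2 fold change of 0.15 (standard error 0.19, unadjusted p of 0.438 in edgeR's fit) had no stable direction, being -0.10 without cKO 2 and 0.38 without cKO 1. The list of ventral telencephalon markers was also lowest in cKO 1, and its part in the Gadd45g values was not tested.

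Rnd2 encodes a small GTPase that acts downstream of NEUROG2 in the radial migration of newborn cortical neurons. It lies on the plus strand of chromosome 11 (101464999 to 101471853). It reached 215 CPM (WT 1) and 241 CPM (WT 2), against 240 CPM (cKO 1) and 283 CPM (cKO 2). WT 2 and cKO 1 were almost equal, with WT 1 below and cKO 2 above them. The mean was 228 ± 18.2 CPM in WT and 262 ± 30.0 CPM in cKO (SD, n = 2 each), and the log2 fold change was 0.21 (standard error 0.16, unadjusted p of 0.238 in edgeR's fit). The gene shares 226 exonic bases with Vat1 on the opposite strand, which had 2812 to 3349 counts, and the strand setting of the counting is not given in the sources used here.

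Sstr2, which encodes a G protein-coupled receptor for the neuropeptide somatostatin, lies on the same chromosome from 113619342 to 113626028, inside the antisense gene Slc39a11 but without shared exonic bases. It reached 76.0 CPM (WT 1) and 94.0 CPM (WT 2), against 89.1 CPM (cKO 1) and 93.5 CPM (cKO 2). WT 1 stood below the other 3 libraries, which lay close together. The log2 fold change was 0.11 (standard error 0.16, unadjusted p of 0.518 in edgeR's fit), and it was -0.05 without WT 1. Its ligand Sst had 1104 to 1804 counts, with a log2 fold change of -0.02.

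The 6 genes did not vary as 1 unit across the libraries. WT 1 was the lowest library for 4 of them (Eomes, Insm1, Rnd2 and Sstr2), WT 2 for Btg2 and cKO 1 for Gadd45g. The highest library was cKO 2 for Btg2, Gadd45g and Rnd2, WT 2 for Insm1 and Sstr2 and cKO 1 for Eomes. Summed over the 6 genes, the level was 859 (WT 1), 959 (WT 2), 973 (cKO 1) and 1014 CPM (cKO 2). WT 1, the lowest, is the library with the most counts of the meninges and choroid plexus lists, whose part in the lower sum was not tested. Without WT 1, the log2 fold changes were 0.13 for Eomes, -0.18 for Insm1, 0.07 for Btg2, 0.14 for Gadd45g, 0.12 for Rnd2 and -0.05 for Sstr2, and none passed the thresholds.

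**Figure D2:**
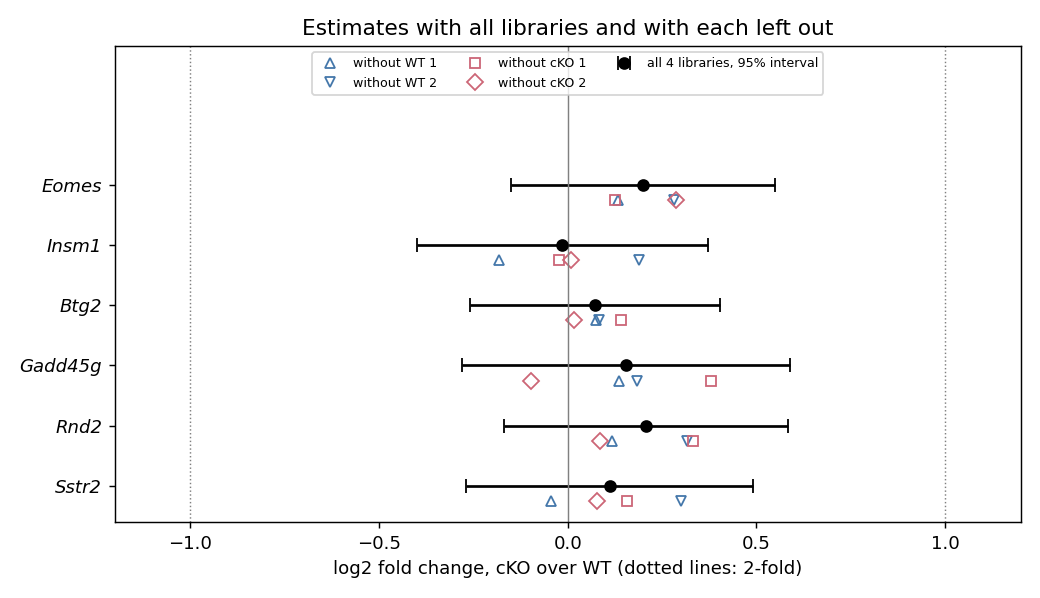
The log2 fold change of each gene, cKO over WT, is given with all 4 libraries (black point with its 95% interval from edgeR's fit) and with 1 library left out (open symbols, blue for a WT and red for a cKO library); dotted lines mark 2-fold changes. Every interval crosses 0 and ends within the dotted lines, and leaving out a library moves Gadd45g between -0.10 and 0.38.

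Per length of exon, Rnd2 was the most abundant of the 6, at 115 CPM per kb in WT and 131 in cKO, and its range over the libraries of 108 to 142 CPM per kb lay above those of the others. Eomes ranged from 56.8 to 71.5, Gadd45g from 55.2 to 76.2 and Insm1 from 48.1 to 60.6 CPM per kb, so these 3 were not separated beyond the spread of the libraries. Btg2 (40.6 to 44.5) and Sstr2 (35.4 to 43.9 CPM per kb) were lower and overlapped each other.

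Within their protein families the 6 genes stood out to different degrees. Gadd45g took 95.4% to 96.9% of the level per length of the 3 Gadd45 genes, Insm1 98.3% to 98.9% of the Insm pair and Sstr2 90.4% to 92.4% of the 5 somatostatin receptors. Rnd2 took 74.8% to 79.9% of the 3 Rnd genes, of which Rnd3 had 2454 to 2720 counts and Rnd1 209 to 240. Btg2 took 44.6% to 49.1% of the 6 genes of the BTG/Tob family. Btg1 had 2412 to 2771 counts but, per length, 25.3 to 28.8 CPM per kb, below Btg2 in every library. Eomes and Tbr1 were of similar level per length, and Tbx21, another gene of this T-box group, had 9 to 13 counts.

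None of the 14 relatives tested, the ligand gene Sst included, passed the thresholds. Their log2 fold changes were 0.32 for Gadd45b and -0.41 for Gadd45a, both with few counts (24 to 54). They were -0.11 for Tbr1 and Tob1, -0.06 for Rnd3, -0.03 for Btg3, 0.02 for Btg1 and Rnd1, 0.01 for Tob2, -0.01 for Tbx21, 0.11 for Insm2, -0.02 for Sstr1 and 0.12 for Sstr3. Btg4, Sstr4 and Sstr5 had at most 7 counts in any library and were not tested.

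**Figure D3:**
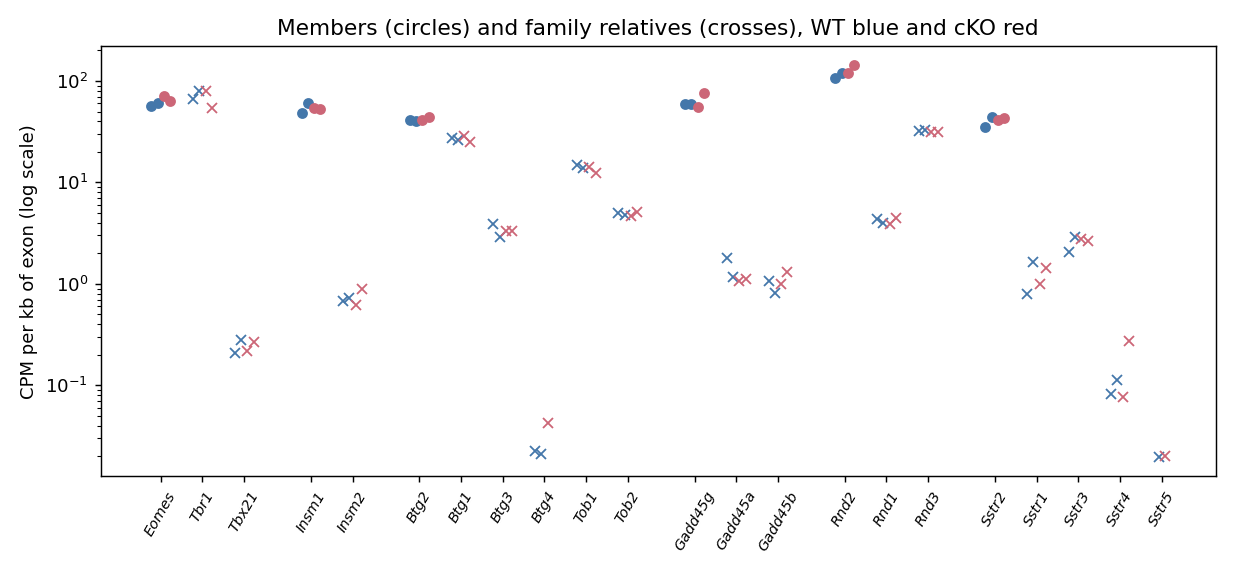
Levels in CPM per kb of exon (log scale) of the 6 genes (circles) and of the relatives in their families (crosses) are given in each library, WT in blue and cKO in red; libraries with 0 counts (cKO 2 for Btg4, WT 1 and cKO 2 for Sstr5) are not drawn. Gadd45g, Insm1 and Sstr2 take over 90.0% of their families, while Tbr1 is near Eomes and Btg1 lies below Btg2 in every library.

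Genes of the states before and after the intermediate progenitor were set beside the 6. Among 11 proneural and neurogenic companions, 0 passed the thresholds, 5 had a log2 fold change above 0 and 6 below, and the median was -0.06. Neurog2, the proneural factor upstream of several of the 6 genes, had a log2 fold change of 0.08. It stood at 283.6 CPM (WT 1) and 273.8 CPM (WT 2), against 299.9 CPM (cKO 1) and 285.5 CPM (cKO 2). WT 1 and cKO 2 were nearly equal, and 10.4% of all genes tested had both cKO libraries above both WT libraries. The companions ran from 0.14 for Nhlh1, a bHLH factor of newborn neurons, to -0.88 for Ppp1r17, at 54 (WT 1), 42 (WT 2), 33 (cKO 1) and 20 counts (cKO 2, standard error 0.42, unadjusted p of 0.0726 in edgeR's fit).

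Of 10 radial glia genes, 0 passed, with a median log2 fold change of 0.07 and a range from -0.16 for Sox2, a stem cell factor, to 0.17 for Nes, which encodes an intermediate filament of progenitors. Of 10 genes of newborn cortical neurons, 0 passed, with a median of 0.03 and a range from -0.30 for Dcx, a microtubule protein of migrating neurons, to 0.20 for Fezf2, a deep-layer factor. The level per length of Eomes relative to Pax6 was 5.03 (WT 1), 5.82 (WT 2), 5.34 (cKO 1) and 6.32 (cKO 2), so the groups overlapped. Tbr1 relative to Eomes was 1.17 (WT 1), 1.31 (WT 2), 1.13 (cKO 1) and 0.862 (cKO 2). Both cKO values lay below both WT values, but cKO 1 was nearer to both WT libraries than to cKO 2. How often other gene pairs separate in this way was not counted. Tbr1 has 5486 exonic bases, and the part of length in this ratio was not tested.

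Because Btg2 and the Gadd45 genes respond to DNA damage and to handling stress, p53 targets and immediate early genes were set beside them. Of 8 p53 target genes, 0 passed, with a median log2 fold change of -0.05 between -0.39 for the cell cycle inhibitor Cdkn1a and 0.26 for the apoptosis gene Bax. Of 7 immediate early genes tested, 0 passed, with a median of -0.04 between -0.13 for the phosphatase gene Dusp1 and 0.25 for Jun. The 6 proliferation genes had a median of 0.06, from -0.26 for Ccnd1 to 0.11 for Mki67, and 0 passed.

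Eomes is also expressed by Cajal-Retzius cells, and the 5 genes of that list had a median log2 fold change of 0.01, from -0.29 for Calb2 to 0.12 for Lhx1, with 0 past the thresholds. All 9 ventral telencephalon genes had a log2 fold change below 0 (median -0.24), from -0.02 for Dlx5 to -0.79 for Nkx2-1. None of the 9 passed the thresholds. Over all genes tested, 52.1% had a log2 fold change below 0. In CPM, 8 of the 9 were lowest in cKO 1, and Gad1 was lowest in cKO 2. The list sum in cKO 2, 1113 CPM, lay between those of WT 2 (1070 CPM) and WT 1 (1148 CPM). Gad1, which encodes an enzyme of GABA synthesis, had an unadjusted p of 0.0179 in edgeR's fit at a log2 fold change of -0.45.

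Genes of the meninges and the choroid plexus gave larger differences. Of 6 meninges and mesenchyme genes tested, Col1a1 (log2 fold change -2.08) and Col1a2 (-1.59) passed, and the median was -1.57, with Foxc1 nearest to 0 at -0.99. All 4 choroid plexus genes tested passed, with -3.44 for Htr2c, -3.33 for Kcne2, -2.66 for Aqp1 and -1.33 for Otx2. Folr1 did not pass the filter. Ttr and Clic6, also on the list, found no match by symbol and entered no value here, the list sum included. The counted genes of both lists were highest in WT 1, where Col1a1 had 1160 counts, against 106 to 221 in the other libraries. Of the 6 genes of red blood cells, from -0.42 for Hba-a1 to 0.01 for Hbb-bh1, and the 6 of endothelium and microglia, from -0.54 for Cdh5 (unadjusted p of 0.0498 in edgeR's fit) to -0.12 for Aif1, 0 passed.

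**Figure D4:**
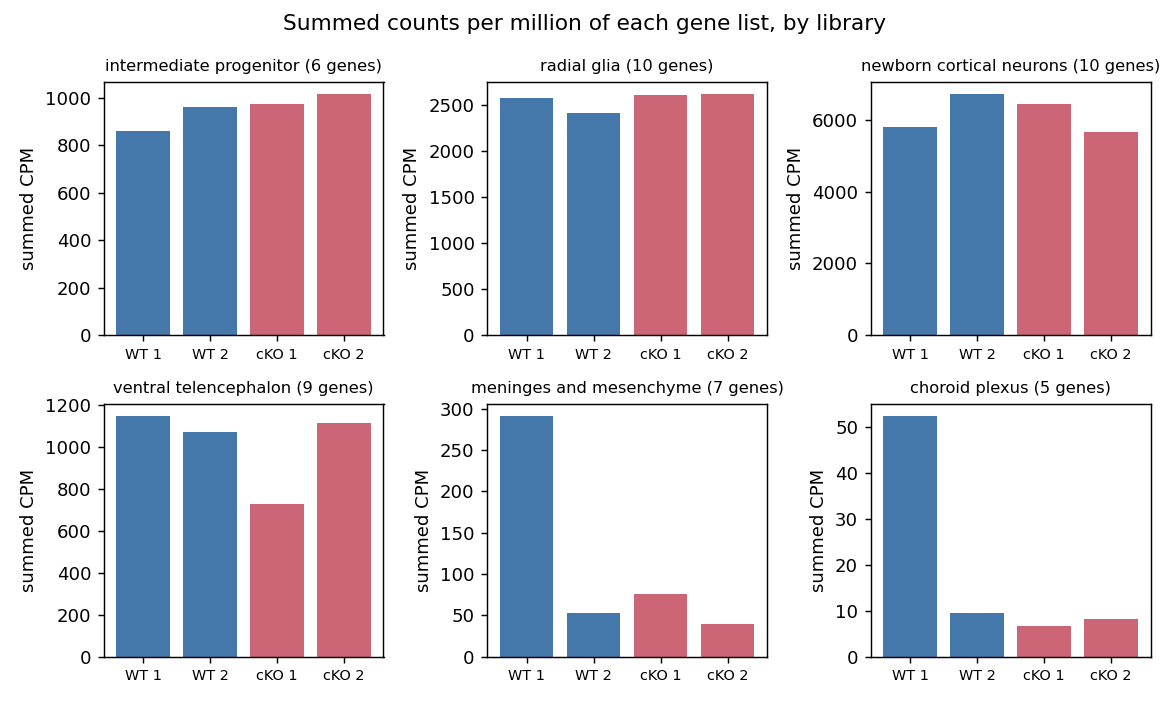
Bars give the summed CPM (axes from 0, each panel with its own scale) of 6 gene lists in the WT (blue) and cKO (red) libraries. The intermediate progenitor sum runs from 859 to 1014 CPM, while the meninges and choroid plexus sums are several times higher in WT 1 than elsewhere and the ventral telencephalon sum is lowest in cKO 1.

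The length of the transcript moved with the gap between the 2 cKO libraries. Over 16120 genes tested with a known exon length, the log2 ratio of cKO 2 to cKO 1, centred on its median, had a median of 0.19 in the 3226 shortest genes (up to 2076 bases) and of -0.24 in the 3224 longest (7298 bases and over), against -0.04 and 0.05 for WT 2 over WT 1. Across genes, which are not independent replicates and share these libraries, Spearman's rho of exon length with cKO 2 over cKO 1 was -0.31. The part of length in these ratios of the 6 genes was not tested. The 6 genes followed this order in part. Gadd45g, with 1173 exonic bases, had a ratio of 0.47 and Rnd2, with 1990, of 0.24. Btg2 (2743 bases) had 0.11, Sstr2 (2143 bases) 0.07, Insm1 (3100 bases) -0.04 and Eomes (4155 bases) -0.17. With all genes split into 5 classes of length, 5 of the 6 ratios lay between the quartiles of their class, and Gadd45g was just above the upper quartile of 0.46. For the log2 ratio of cKO 2 to the mean of the other libraries, Spearman's rho with exon length was -0.32. That ratio, centred in the same way, had a median of 0.19 in the shortest class and -0.19 in the longest. For the log2 ratio of cKO over WT, also centred on its median, Spearman's rho with exon length was -0.19. Its median was 0.06 in the shortest class and -0.05 in the longest. With offsets corrected for exon length, an alternative added after the data were seen, the log2 fold change was 0.09 for Gadd45g and 0.17 for Rnd2. Without this correction the values were 0.15 for Gadd45g and 0.21 for Rnd2. For the other 4 genes the log2 fold change was between -0.02 and 0.21 with the correction and between -0.01 and 0.20 without it.

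**Figure D5:**
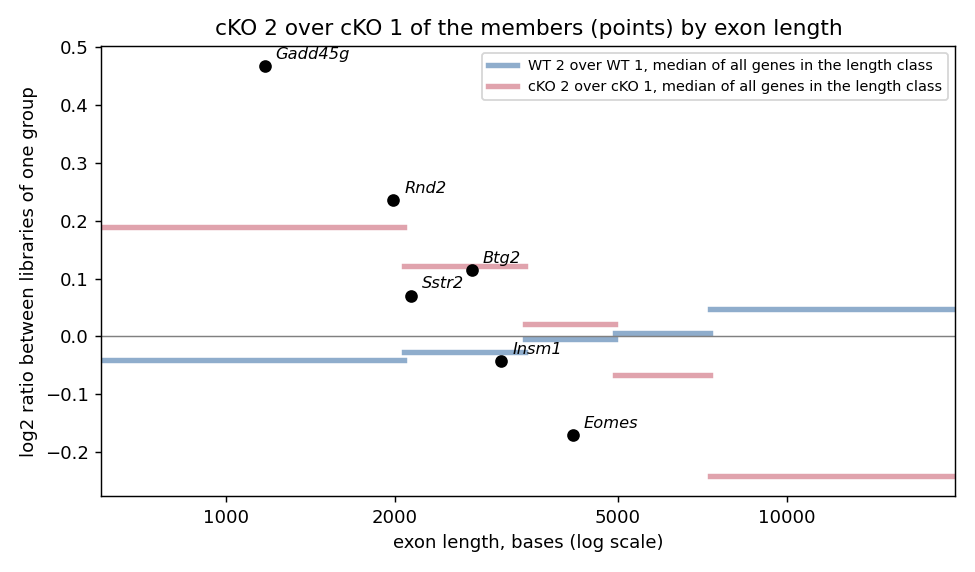
Points give the log2 ratio of cKO 2 to cKO 1 (centred on the median of all genes) of the 6 genes against exon length in bases (log scale), and bars the median of all genes in each of 5 classes of exon length for cKO 2 over cKO 1 (red) and for WT 2 over WT 1 (blue); the outer classes are drawn only to the edge of the axis. The red bars step down from 0.19 to -0.24, and Gadd45g, the shortest gene, and Eomes, the longest, lie at the ends of the points.

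The genes whose pattern over the 4 libraries was most like the mean of the 6 were Zfp954, Tmem59l, Bag1, Sez6 and 1110008F13Rik, with Pearson correlations of 0.9989 to 0.9997. On the log2 scale the mean pattern was -0.15 (WT 1), 0.03 (WT 2), -0.01 (cKO 1) and 0.13 (cKO 2). These are descriptions over 4 points, and 413 of the 6999 genes compared had a correlation above 0.9. The log2 fold changes of the 5 genes named lay between 0.17 for Zfp954 and 0.35 for 1110008F13Rik.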

How the data were processed

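The authors deposited a table with 1 column of raw counts of reads per gene for each of the 4 libraries and no normalization. The submitters' processing notes list Bowtie2 2.2.3, TopHat2 2.0.12 and HTSeq 0.6.0 and the build mm9, but of the 27232 genes found in GENCODE M21 (GRCm38), 97.3% have a start or end within 1 base of that annotation, so positions were read as GRCm38. Of 27304 rows, 11 (0.0403%) were blank and were left out. A second table repeats 2 of the libraries and was not used, nor were the authors' columns of fold changes and p-values.

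The test was edgeR's quasi-likelihood test (version 4.0.16, R 4.3.3) on all genes kept by filterByExpr, with TMM normalization and no covariate, and DESeq2 1.42.0 was an alternative. Exon lengths are unions of GENCODE exons. The procedure was tested on simulated data. The 6 genes and all lists were chosen with earlier results of these data known. All 6 are named, with every family relative, and from each list the genes with the largest and smallest log2 fold change and those with an unadjusted p of at most 0.05. The pattern likeness used genes of at least 10 CPM on average, with a prior count of 2, whose SD over the libraries reached that of the mean pattern. Other genes named were singled out after their values were seen. The list of telencephalic identity genes is not reported here beyond the counts of 3 genes.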

Additional observations from a re-analysis of the deposited data

How the results depend on the processing

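None of the 6 genes was called with RLE or upper-quartile normalization, without a filter, with DESeq2, with the replicate block, with any library left out, with offsets corrected for exon length or at an adjusted p under 0.05. Eomes, Btg2 and Rnd2 kept their direction under all of these. The reversals came from leaving out 1 library: Insm1 was 0.19 without WT 2 and 0.01 without cKO 2 (lowest -0.18 without WT 1), Gadd45g was -0.10 without cKO 2 and Sstr2 -0.0453 without WT 1. The ranges with 1 library left out were 0.13 to 0.29 for Eomes, 0.02 to 0.14 for Btg2, -0.10 to 0.38 for Gadd45g, 0.09 to 0.33 for Rnd2 and -0.05 to 0.30 for Sstr2. Without cKO 1, edgeR's unadjusted p was 0.0118 for Gadd45g (adjusted p = 0.183) and 0.0393 for Rnd2 (adjusted p = 0.30), both below a 2-fold change. In these fits the lone library is assumed to vary like the other group.

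Of all genes, 131 were called, 405 with no filter, 82 with DESeq2 and 208 with the replicate block, and between 104 (without WT 1) and 531 (without cKO 1) with 1 library left out, the value without WT 2 being 476. The cause was not tested. By edgeR's adjusted p, 0 genes passed 0.05, and DESeq2 gave 0 as well, while 199 passed unadjusted in edgeR's fit. The adjusted count was 65 with no filter, 5 with the replicate block, 7 without WT 1, 116 without WT 2 and 105 without cKO 1, with none of the 6 genes among them. Replicate numbers are shared by the groups, but no source says what they mark, and deviations of same-numbered libraries correlated at 0.108. The replicate block gave log2 fold changes between -0.00284 (Insm1) and 0.21 (Rnd2). Both cKO libraries lay above the WT libraries for 1 of the 6 genes in CPM and for 2 after TMM normalization, a setting added after the data were seen, against 10.4% and 11.0% of all genes tested.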

Other observations

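The genes of newborn cortical neurons were spread in cKO 2. In CPM, 6 of the 10 were lowest in that library (Tbr1, Neurod6, Dcx, Bcl11b, Sox5 and Map2) and 2 were highest in it (Tubb3 and Stmn2). Dcx, with 12647 exonic bases, had 9360 counts in cKO 2 and 14875 to 20511 elsewhere, and Map2, with 16449, had 7139 and 12141 to 13794. Tubb3, with 1868 exonic bases, had 40629 counts in cKO 2 and 30742 to 37799 elsewhere, and Stmn2, with 5602, had 10503 and 8266 to 9553. Neurod6, with 2150 exonic bases, had 8195 counts in cKO 2 and 9450 to 12322 elsewhere. Tbr1 has 5486 exonic bases, Bcl11b 8111 and Sox5 14376. Among genes tested, the median log2 ratio of cKO 2 to cKO 1 was -0.24 in the length class of Dcx, Map2, Bcl11b and Sox5. It was 0.19 in that of Tubb3, 0.12 in that of Neurod6 and -0.07 in that of Stmn2 and Tbr1. The part of length in these values was not tested.

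Of the 8 p53 targets, 3 were lowest in cKO 2 in CPM (Mdm2, Ccng1 and Trp53inp1) and 3 were highest in it (Bax, Phlda3 and Sesn2). The exons of the first 3 span 5083 (Mdm2), 3512 (Ccng1) and 6475 bases (Trp53inp1). Those of the last 3 span 1576 (Bax), 1559 (Phlda3) and 3475 bases (Sesn2). Cdkn1a (3553 bases) and Zmat3 (11435 bases), the longest of the 8, were neither lowest nor highest in cKO 2. Zmat3 stood at 57.4 CPM in WT 2, its lowest library, and at 58.0 CPM in cKO 2. Trp53inp1 had 469 counts in cKO 2 and 1089 to 1411 in the other libraries. The part of length in these values was not tested. These genes were singled out after their values were seen, and no test was made.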
